A study of Mus musculus with 6 samples.

Results

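The guanylate-binding proteins (GBPs) and the immunity-related GTPases (IRGs) are 2 families of GTPases, and with the transcription factor Irf1 they are described here in Tregs of the bone marrow (BM) of leukemic and healthy mice. The members are 10 genes whose symbols were matched to the feature names of the deposited tables: Gbp2, Gbp3, Gbp4, Gbp6, Gbp7, Gbp9, Irgm1, Igtp, Iigp1 and Irf1. All 10 were found among the 36930 features, and all 10 were among the 13923 genes that passed the filter of a mean of at least 1 RPKM, a read count scaled for the length of the feature and the depth of the library. RNA was measured in 6 libraries, each from the sorted BM Tregs of 1 mouse. The 3 naive mice carried no leukemia. In the 3 CML mice, Lin-Sca-1+c-Kit+ stem and progenitor cells transduced with a BCR-ABL1-GFP retrovirus had been given i.v. without irradiation, and Tregs were taken at day 15 after CML induction. All 6 mice were 8 weeks old and of the Foxp3-DTR-GFP strain, in which the Foxp3 locus drives a diphtheria toxin receptor and GFP, so that Tregs and the transduced leukemia cells both carry GFP. Both groups share this allele, and neither group of this comparison is listed with toxin treatment.

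GBPs and IRGs are made by most cells after they sense interferon gamma (IFN-γ). The IFN-γ receptor consists of Ifngr1 and Ifngr2 chains that activate the kinases Jak1 and Jak2. Their signal reaches GAS elements in DNA and switches on Irf1, and Irf1 in turn binds interferon-stimulated response elements (ISREs) of many later genes. GBPs and IRGs then coat and disrupt the membranes around intracellular pathogens and help to activate inflammasomes, and Irgm1 and Igtp restrain the other IRGs on the membranes of the cell itself. In T cells, these genes serve as a readout of IFN-γ sensing, and Irgm1 is known to support the survival of activated T cells.

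Foxp3, Il2ra, Ctla4, Ikzf2, Cd4, Cd3e and Trac, which mark Tregs, had reads in every library, with summed levels of 1895 to 2648 RPKM in CML and 1864 to 2108 RPKM in naive Tregs. The step that 1 read adds to the values of small RNA features gave an estimated 829181 to 7613827 reads per library in CML Tregs and 5187987 to 9751911 in naive Tregs. These depths are approximate. Of the products of value and feature length up to 20 steps, 31.9% (naive replicate 3) to 59.0% (CML replicate 3) lay within 0.05 of a whole step. CML replicate 2 had the fewest reads and is the least precise library, with 50.7% of its summed values in its 10 highest features, compared with 28.5% to 31.3% in the others. Markers of other BM cells were present at lower levels. The 8 neutrophil markers summed to 8.77, 203 and 212 RPKM in CML replicates 1, 2 and 3 and to 23.5 to 53.3 RPKM in naive Tregs, and 5 of the 8 were at 0 in at least 1 library. The 7 erythroid markers summed to 35.6 to 204 RPKM in CML and 5.01 to 29.6 RPKM in naive Tregs, without overlap between the groups. The 5 monocyte and macrophage markers measured summed to 39.6 to 62.2 and 36.0 to 56.3 RPKM. The 2 CD8 T cell markers summed to 51.1 to 74.2 and 26.2 to 58.7 RPKM, the 4 NK cell markers to 9.16 to 19.5 and 7.99 to 21.8 RPKM, and the 5 B cell markers to 3.18 to 8.79 and 8.42 to 10.7 RPKM, with Ebf1 at 0 throughout. The part of these cells in the values below was not tested.

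The mean level of each of the 10 members was higher in CML than in naive Tregs, but none passed an adjusted p of 0.05. On the log2(RPKM + 1) scale, the differences between CML and naive Tregs ran from 0.06 for Gbp9 to 0.71 for Iigp1, with a median of 0.37. Over all 13923 genes tested, the median difference was -0.18, and 35.7% of genes had a difference above 0. This share, used as a background below, is for the deposited scaling. After quantile normalization, the median was -0.0068 over all genes tested and 0.42 over the members. With limma and Benjamini-Hochberg adjustment over all genes tested, 0 of the 10 members were past an adjusted p of 0.05 with a fold of at least 1.5, against a background of 0.172% of genes (0.0431% higher and 0.129% lower in CML Tregs). At an unadjusted p under 0.05, 3 members were higher in CML Tregs, namely Iigp1, Igtp and Gbp7 (background 2.92%), and 0 were lower (background 6.77%). Of the 3, Iigp1 and Igtp also had a fold of at least 1.5, which makes 2 of 10 members against 2.61% of all genes higher and 8.55% in either direction. These are 363 genes higher and 827 lower. The split was 624 to 590 after quantile normalization and 487 to 705 with the same sum without the highest features. The number of members under an unadjusted p of 0.05 depended on the fit. It was 1, Iigp1 alone, without a variance trend, with the replicate number as a block, without CML replicate 1, without naive replicate 1 and without naive replicate 2, and 3 to 5 in the other alternatives, which all included Iigp1. For Iigp1, Igtp and Gbp7, the lowest CML value was above the highest naive value (background 4.84%). With quantile normalization, Gbp7, Iigp1 and Irf1 were apart in this way (background 8.88%). With the libraries set to the same 75th percentile (background 6.49%) or to the same sum without their highest features (background 7.2%), Gbp6, Gbp7, Iigp1 and Irf1 were. Each p measures the spread between mice.

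**Figure D1:**
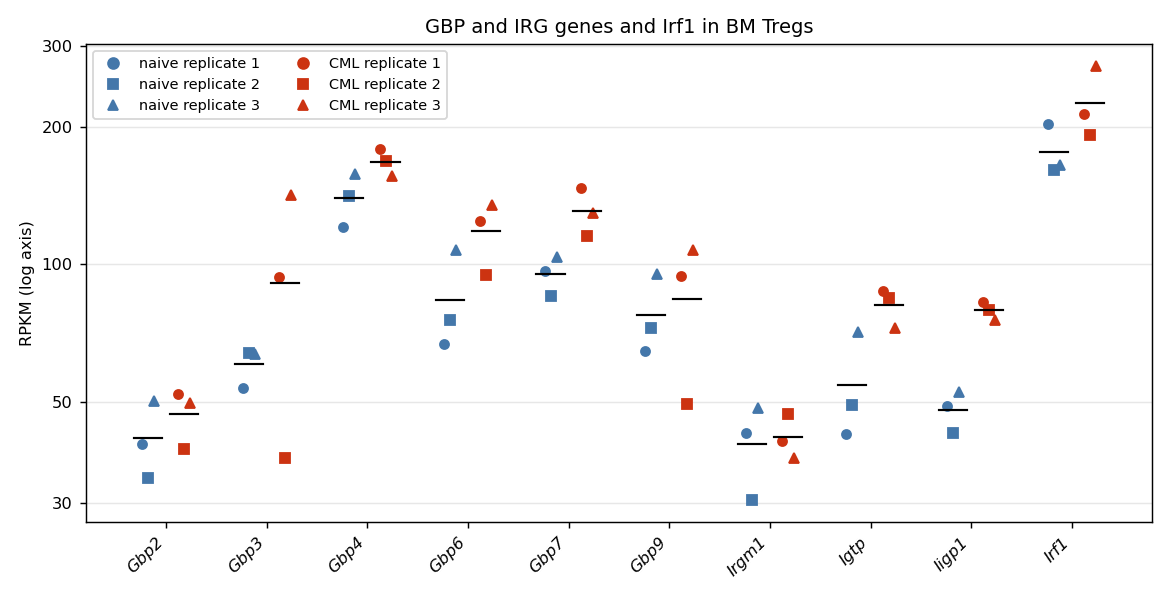
RPKM values (log axis) of the 10 members in each of the 6 libraries, with naive Tregs in blue, CML Tregs in red, a symbol for each replicate number and black lines for group means. The CML and naive points are apart for Gbp7, Igtp and Iigp1 and overlap for the other members.

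Upstream sequences were searched for the letters of interferon elements. They are shown for the members with a window that had the lowest unadjusted p (Gbp7, Igtp). They are also shown for an IRG with nearly equal group means (Irgm1) and for the transcription factor at the head of the cascade (Irf1). RefSeq promoter windows of build GRCm38.p6 were matched by symbol for 6 of the 10 members (8 windows, since Gbp3 and Irf1 have 2 starts each), and none was matched for Gbp4, Gbp6, Gbp9 and Iigp1. The 250 bases before each start are given 5′ to 3′ on the strand of the gene, in lower case, with matches in capitals. The letters searched were GAAANNGAAA for the ISRE (TTTCNNTTTC on the opposite strand) and TTCNNNGAA for GAS, which reads the same on both strands.
Gbp7 (chr3:142530086-142530335, plus strand): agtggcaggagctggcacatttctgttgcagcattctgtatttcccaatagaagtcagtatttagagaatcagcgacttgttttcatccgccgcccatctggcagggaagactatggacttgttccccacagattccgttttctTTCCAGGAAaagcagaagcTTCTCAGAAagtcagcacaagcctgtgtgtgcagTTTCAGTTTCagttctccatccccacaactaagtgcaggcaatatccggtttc
Igtp (chr11:58199306-58199555, plus strand): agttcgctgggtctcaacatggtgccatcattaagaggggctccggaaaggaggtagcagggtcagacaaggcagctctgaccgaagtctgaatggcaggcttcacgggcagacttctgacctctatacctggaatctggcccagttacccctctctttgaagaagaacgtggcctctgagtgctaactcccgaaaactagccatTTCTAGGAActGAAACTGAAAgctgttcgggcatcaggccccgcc
Irgm1 (chr11:48871421-48871670, minus strand): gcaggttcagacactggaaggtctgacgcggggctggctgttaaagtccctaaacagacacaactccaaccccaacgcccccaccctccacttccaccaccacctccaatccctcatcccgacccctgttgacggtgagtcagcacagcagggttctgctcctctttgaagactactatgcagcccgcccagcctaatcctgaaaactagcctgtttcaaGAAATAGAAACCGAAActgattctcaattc
Irf1 (chr11:53769764-53770013, plus strand): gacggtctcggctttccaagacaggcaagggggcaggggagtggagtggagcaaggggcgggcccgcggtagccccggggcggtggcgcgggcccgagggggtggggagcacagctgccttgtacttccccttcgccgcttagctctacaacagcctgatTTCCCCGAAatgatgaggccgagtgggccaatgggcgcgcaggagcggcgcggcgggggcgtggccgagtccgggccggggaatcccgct

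An ISRE match was present in 5 of the 8 windows (1 each of Gbp2, Gbp3, Gbp7, Irgm1 and Igtp), compared with 2.98% of all 32851 windows. It lay between 59 and 15 bases before the start in each of them. Irgm1 and the first start of Gbp3 had 2 overlapping ISRE matches each, GAAATAGAAA with GAAACCGAAA and TTTCAGTTTC with TTTCTATTTC. A GAS match was present in 3 of the 8 windows, compared with 7.02% of all windows. Irf1 held TTCCCCGAA from 90 to 82 bases before its first start and no ISRE match, Igtp held TTCTAGGAA just upstream of its ISRE match, and Gbp7 held TTCCAGGAA and TTCTCAGAA. Irgm1, with 2 ISRE matches, had nearly equal mean levels in CML and naive Tregs. A match is a description of letters and not of binding.

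**Figure D2:**
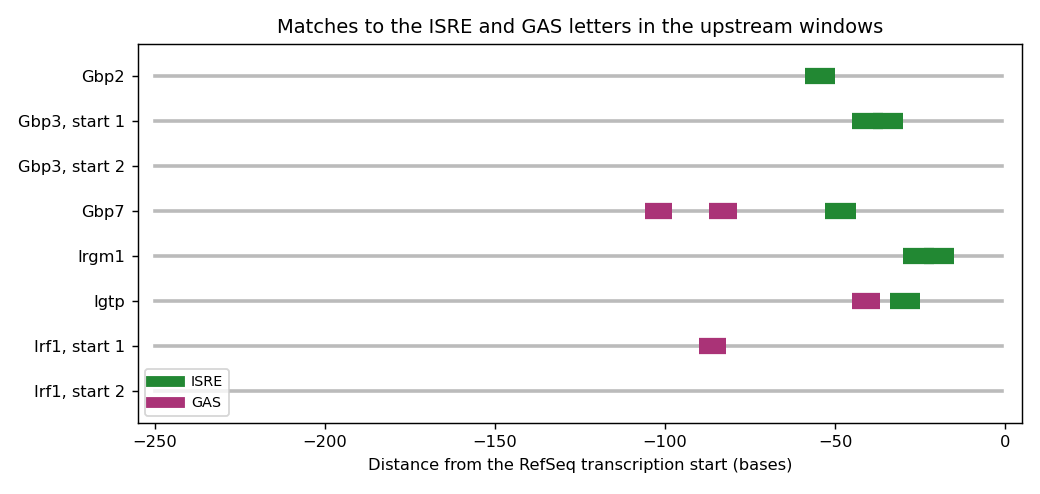
Positions of ISRE (green) and GAS (purple) matches in the 250 bases before each RefSeq start of the 6 members with a window, in bases from the start. All ISRE matches lie within the last 59 bases, and the second starts of Gbp3 and Irf1 hold no match.

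Irf1 was the member with the highest level in both groups. It is a protein-coding gene on chromosome 11 from 53770014 to 53778374 (GENCODE M21, build GRCm38, as are all positions given here). It had 202, 161 and 165 RPKM in naive replicates 1, 2 and 3 and 213, 192 and 272 RPKM in CML replicates 1, 2 and 3. Naive replicate 1 lay above CML replicate 2, so the groups overlapped, and CML replicate 3 was the highest. CML Tregs averaged 226 ± 41.4 RPKM and naive Tregs 176 ± 23.0 RPKM (SD, n = 3). The difference on the log2(RPKM + 1) scale was 0.35 (standard error 0.18, limma adjusted p = 0.581).

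Of the IRGs among the members, Iigp1 (also Irga6), an effector GTPase that attacks vacuoles, differed most. This gene of chromosome 18 had 49.0, 42.8 and 52.5 RPKM in naive replicates 1, 2 and 3, and 82.6, 79.6 and 75.7 RPKM in CML replicates 1, 2 and 3. All CML values were above all naive values, and each group was tight. The means were 79.3 ± 3.45 and 48.1 ± 4.94 RPKM (SD, n = 3), a ratio of 1.65. The difference was 0.71 on the log2(RPKM + 1) scale (95% interval 0.32 to 1.10, limma unadjusted p = 0.00296, adjusted p = 0.238). An exact 2-sided permutation test of the RPKM values gave p = 0.1, and no smaller p can be reached with 3 libraries in each group. The groups stayed apart for Iigp1 under the 3 other scalings, and its difference stayed between 0.63 and 0.78 when each library was left out in turn. Among all genes tested, 93.5% had a lower difference.

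Igtp (also Irgm3), a regulatory IRG, lies on chromosome 11 from 58199556 to 58207591. It had 42.6, 49.3 and 71.2 RPKM in naive replicates 1, 2 and 3, and 87.4, 84.4 and 72.6 RPKM in CML replicates 1, 2 and 3. The groups did not overlap, but naive replicate 3 was within 2 RPKM of CML replicate 3, and the groups overlapped under each of the 3 other scalings. The means were 81.4 ± 7.83 and 54.4 ± 14.96 RPKM (SD, n = 3), and the difference was 0.60 (95% interval 0.08 to 1.12, limma unadjusted p = 0.0282, adjusted p = 0.458). The annotated gene shares its locus with Irgm2, and 8.22% of the stretches of read length (76 bases) in its longest transcript also occur in Irgm2.

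Irgm1, the other regulatory IRG among the members, lies on chromosome 11 from 48861968 to 48871683. It had 42.8, 30.5 and 48.4 RPKM in naive replicates 1, 2 and 3, and 41.0, 47.1 and 37.7 RPKM in CML replicates 1, 2 and 3. The groups overlapped fully, and a naive library was both the highest and the lowest of the 6. The means were 41.9 ± 4.75 and 40.6 ± 9.18 RPKM (SD, n = 3). The difference was 0.07 (95% interval -0.47 to 0.60, limma adjusted p = 0.941), and its direction turned without CML replicate 2 (-0.02) and without naive replicate 2 (-0.12).

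Because a ratio of 2 genes in the same library is free of the scaling between libraries, Iigp1 and Igtp were also set against Irgm1. These pairs were chosen after the values were seen, so the ratios are given without a test. The ratio of Iigp1 to Irgm1 was 1.15, 1.40 and 1.08 in naive replicates 1, 2 and 3 and 2.01, 1.69 and 2.01 in CML replicates 1, 2 and 3. The ratio of Igtp to Irgm1 was 0.995, 1.62 and 1.47 in naive replicates 1, 2 and 3 and 2.13, 1.79 and 1.92 in CML replicates 1, 2 and 3. The CML ratios were above the naive ratios for both pairs, without overlap.

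**Figure D3:**
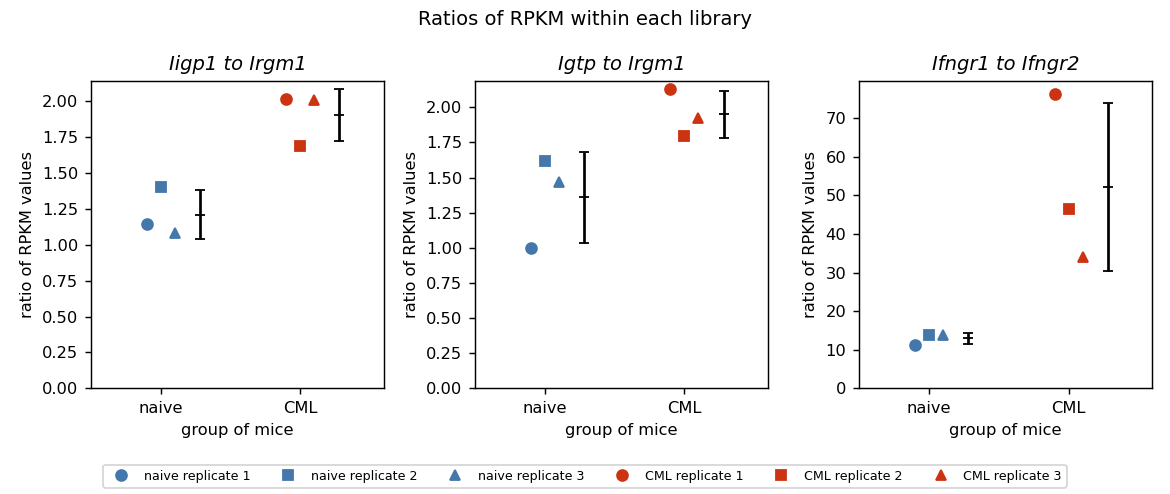
Ratios of RPKM values within each library for 3 pairs of genes, with naive Tregs in blue, CML Tregs in red and the group mean ± SD (n = 3) in black. The CML libraries are above the naive libraries in each pair.

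The GBPs among the members lie in a cluster on chromosome 3 (Gbp2, Gbp3, Gbp7) and a cluster on chromosome 5 (Gbp4, Gbp6, Gbp9). Gbp7, which has been linked to the assembly of oxidative defenses on pathogen vacuoles, lies on chromosome 3 from 142530342 to 142550149. It had 96.9, 85.3 and 104 RPKM in naive replicates 1, 2 and 3, and 147, 115 and 130 RPKM in CML replicates 1, 2 and 3. The groups did not overlap, under the deposited scaling or the 3 others. The means were 131 ± 15.9 and 95.3 ± 9.27 RPKM (SD, n = 3), and the difference was 0.45 (95% interval 0.06 to 0.83, limma unadjusted p = 0.0275, adjusted p = 0.451). In its longest transcript, 11.4% of the stretches of 76 bases occur in another annotated gene, mostly the gene model Gm43802.

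Gbp2, a GBP that gathers on the vacuoles and membranes of bacteria and parasites, lies on chromosome 3 from 142620602 to 142638008. It had 40.4, 34.1 and 50.3 RPKM in naive and 52.0, 39.5 and 49.7 RPKM in CML replicates 1, 2 and 3. The groups overlapped (difference 0.18, standard error 0.22, limma adjusted p = 0.796). Gbp3, which lies on chromosome 3 from 142560026 to 142573209, was the member with the widest spread. It had 53.7, 64.1 and 63.9 RPKM in naive and 94.1, 37.8 and 142 RPKM in CML replicates 1, 2 and 3, so that CML replicates 1 and 3 were above and CML replicate 2 below every naive library. Its difference of 0.40 (standard error 0.43, limma adjusted p = 0.766) became 0.93 without CML replicate 2 (adjusted p = 0.212) and -0.02 without CML replicate 3 (adjusted p = 0.987). About 84 reads of Gbp3 lie behind the value of CML replicate 2, by the estimated depth and the length of its longest transcript, compared with 747 to 1921 in the other libraries.

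Of the chromosome 5 members, Gbp6 (from 105270702 to 105293698) differed most. It had 67.1, 75.6 and 108 RPKM in naive and 125, 94.6 and 135 RPKM in CML replicates 1, 2 and 3. The groups overlapped by CML replicate 2 and naive replicate 3 (difference 0.51, 95% interval -0.02 to 1.04, limma adjusted p = 0.531). With the same 75th percentile and with the same sum without the highest features, they did not. As 55.0% of the stretches of 76 bases in its longest transcript occur in other annotated genes, reads of Gbp6 could be split between near-identical copies and its level is uncertain.

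Gbp4 (from 105115767 to 105139586), the GBP with the highest level, had 121, 141 and 158 RPKM in naive and 179, 168 and 156 RPKM in CML replicates 1, 2 and 3. The overlap was slight, with CML replicate 3 just below naive replicate 3 (difference 0.27, standard error 0.16, limma adjusted p = 0.62). Gbp9 (from 105077630 to 105139539), whose annotated span overlaps that of Gbp4 on the same strand, had 64.8, 72.6 and 95.4 RPKM in naive and 94.4, 49.6 and 108 RPKM in CML replicates 1, 2 and 3. CML replicate 2 was the lowest and CML replicate 3 the highest of the 6 libraries (difference 0.06, standard error 0.31, limma adjusted p = 0.961). The direction of Gbp9 turned without CML replicate 1 (-0.07), without CML replicate 3 (-0.16) and without naive replicate 1 (-0.06).

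By mean RPKM, the order in naive Tregs was Irf1, Gbp4, Gbp7, Gbp6, Gbp9, Gbp3, Igtp, Iigp1, Gbp2 and Irgm1. Irf1 and Gbp4, Gbp4 and Gbp7, and Gbp9 and Gbp3 were neighbors whose ranges did not overlap, and the ranges of all other neighbors did. In CML Tregs the order was the same except that Gbp3 stood before Gbp9. There, Irf1 and Gbp4, Gbp4 and Gbp7, and Iigp1 and Gbp2 were apart. The mean log2(RPKM + 1) of the 10 members was 6.65, 6.31 and 6.68 in CML replicates 1, 2 and 3 and 6.10, 6.06 and 6.40 in naive replicates 1, 2 and 3. Naive replicate 3 was thus above CML replicate 2. It was the highest naive library for 8 of the 10 members, and CML replicate 2 was the lowest CML library for 6 of them. Without CML replicate 2, the groups were apart, with CML Tregs higher, for 6 of the 10 members (Gbp3, Gbp6, Gbp7, Igtp, Iigp1 and Irf1), against 13.9% of all genes tested, and without naive replicate 3 they were for 5 (Gbp4, Gbp6, Gbp7, Igtp and Iigp1), against 6.64% of all genes. Reads of a bulk library do not tell fewer cells that make a transcript from less RNA in each cell.

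Other genes of both families were measured as a list of 19, of which 15 were in the tables and 14 passed the filter. Of these 14, 9 had a positive difference (background 35.7%), with a median of 0.26 and a range from -0.31 to 1.04. With limma, 0 passed an adjusted p of 0.05 and 0 an unadjusted p of 0.05. Gbp5, a GBP that takes part in inflammasome assembly, had 35.2, 47.8 and 54.8 RPKM in naive and 62.8, 51.0 and 67.8 RPKM in CML replicates 1, 2 and 3 (difference 0.40, limma adjusted p = 0.597). Irgm2, the third regulatory IRG, had 49.6, 36.8 and 49.0 RPKM in naive and 72.3, 40.6 and 71.8 RPKM in CML Tregs (difference 0.40, limma adjusted p = 0.654). In both genes, CML replicates 1 and 3 were above every naive library and CML replicate 2 was not.

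The remaining GBPs were Gbp8, Gbp10, Gbp11 and Gbp2b, with differences of 0.22, 0.24, 0.47 and -0.06 (limma adjusted p = 0.767, 0.725, 0.666 and 0.98). The effector IRGs Tgtp1 and Tgtp2, near-identical neighbors whose reads could be split by the counting, had mean levels of 36.4 ± 11.5 and 53.6 ± 6.06 RPKM in CML Tregs, against 37.4 ± 4.87 and 44.4 ± 10.6 RPKM in the naive group (SD, n = 3), with differences of -0.08 and 0.29. The IRG genes near Iigp1 were low. F830016B08Rik had at most 16.5 RPKM, Gm4841 at most 12.5 RPKM and Gm4951 at most 8.89 RPKM, with differences of 0.59, 0.28 and 1.04, and their 95% intervals each included 0. Gvin1 and Gm4070, which belong to the giant GTPases induced by interferon, had mean levels of 149 ± 27.6 and 151 ± 20.6 RPKM in CML Tregs, against 151 ± 8.94 and 153 ± 6.65 RPKM in the naive group (SD, n = 3), with differences of -0.04 and -0.02. Irgq had a difference of -0.31 with an interval from -1.91 to 1.29. Irgc1 was listed at 0 in every CML library and at 1.39, 2.13 and 0.663 RPKM in naive replicates 1, 2 and 3.

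**Figure D4:**
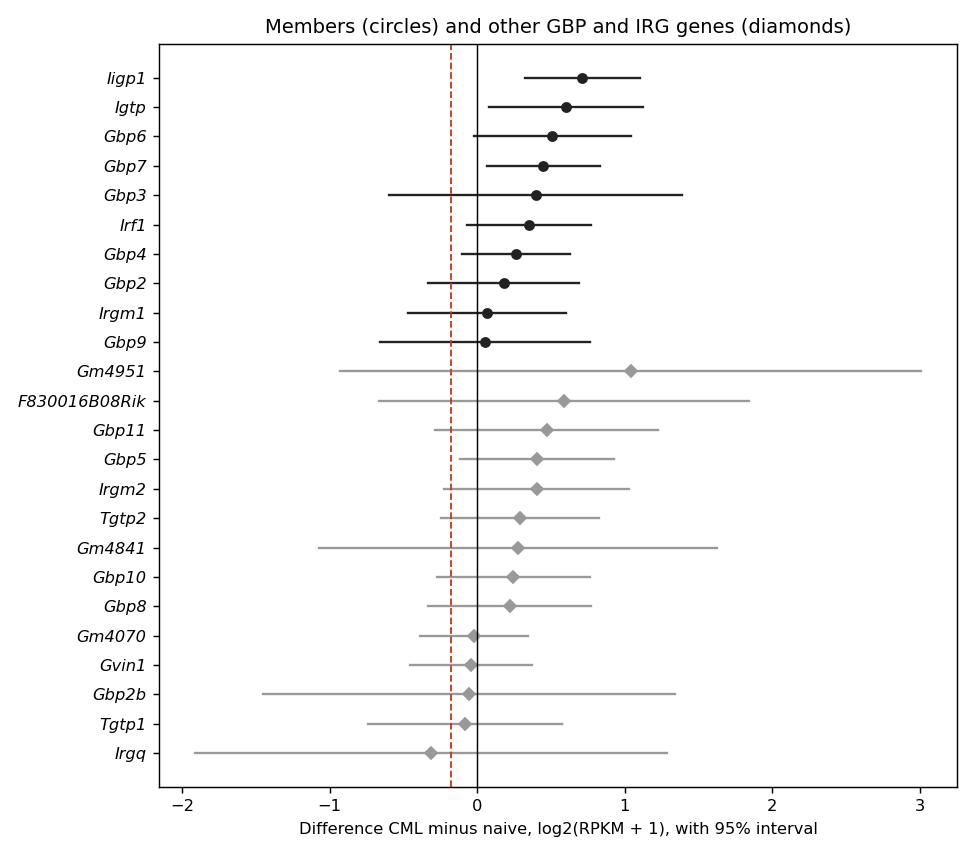
Differences between CML and naive Tregs on the log2(RPKM + 1) scale with 95% intervals from limma for the 10 members (black circles) and the 14 other GBP and IRG genes tested (gray diamonds), with a dashed line at the median of all genes tested (-0.18). All 10 circles lie to the right of 0, and the intervals of Iigp1, Igtp and Gbp7 do not reach 0.

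Upstream of the members, the chains of the IFN-γ receptor differed in opposite directions, with neither past an adjusted p of 0.05. Ifngr1, which binds IFN-γ, had 280, 311 and 326 RPKM in naive and 673, 504 and 582 RPKM in CML replicates 1, 2 and 3. Every CML library was far above every naive library (ratio of means 1.92, difference 0.93, standard error 0.16, limma unadjusted p = 0.000382, adjusted p = 0.0967). The adjusted p was under 0.05 in 4 of the alternative fits, among them the 3 other scalings (0.0483 after quantile normalization, 0.0393 for equal 75th percentiles, 0.035 for equal sums without the highest features, and 0.0371 when libraries were weighted by their quality). In the other alternatives it was 0.0736 or higher, with 0.192 without a filter, 0.325 without a variance trend, 0.331 with the replicate block and 0.365 to 0.476 without each naive library.

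Ifngr2, the signaling chain whose level is known to limit the response of T cells, had 24.9, 22.7 and 23.7 RPKM in naive and 8.81, 10.9 and 17.1 RPKM in CML replicates 1, 2 and 3. Every CML library was below every naive library (background 12.2%; ratio of means 0.515, difference -0.95, limma unadjusted p = 0.0143, adjusted p = 0.369). The ratio of Ifngr1 to Ifngr2 within a library, a pair also chosen after the values were seen, was 11.2, 13.7 and 13.8 in naive replicates 1, 2 and 3 and 76.4, 46.4 and 34.1 in CML replicates 1, 2 and 3.

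Ifng itself had 20.6, 21.4 and 19.1 RPKM in naive and 17.7, 18.04 and 58.9 RPKM in CML replicates 1, 2 and 3, so that only CML replicate 3 was above the naive range. Its difference was 0.38 (limma adjusted p = 0.79) and turned to -0.18 without CML replicate 3. Of the NK cell markers, Ncr1 (4.56 RPKM) and Klrb1c (1.08 RPKM) were highest in CML replicate 3. Klrd1 was at 0 there, and Prf1 was highest in naive replicate 1. Of the CD8 T cell markers, Cd8b1 was highest in CML replicate 3 (66.8 RPKM) and Cd8a in CML replicate 2. The part of such cells in the Ifng value was not tested. CML replicate 3 had the highest values of Irf1, Gbp3, Gbp6 and Gbp9 of all libraries, and CML replicate 1, with the lowest Ifng, those of Gbp2, Gbp4, Gbp7, Igtp and Iigp1. For 4 members, Igtp and Iigp1 among them, CML replicate 3 was the lowest CML library. Jak1 and Jak2 overlapped between the groups (differences -0.18 and 0.22, limma adjusted p = 0.718 and 0.789).

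Socs1, an inhibitor of the Jak kinases, had 27.1, 21.2 and 23.6 RPKM in naive and 51.0, 35.9 and 49.97 RPKM in CML replicates 1, 2 and 3. The groups were apart (ratio of means 1.90, difference 0.89, limma unadjusted p = 0.00486, adjusted p = 0.273). Socs3, a further inhibitor of cytokine receptors that is named here because of its values, was higher in all CML libraries as well (72.6 ± 14.4 and 41.5 ± 3.17 RPKM, SD, n = 3; difference 0.77, limma adjusted p = 0.282). Of the 12 signaling genes, 0 passed the adjusted p, 3 were higher and 1 lower at an unadjusted p under 0.05 with a fold of at least 1.5 (background 2.61% and 5.94%), and the median difference was 0.14.

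**Figure D5:**
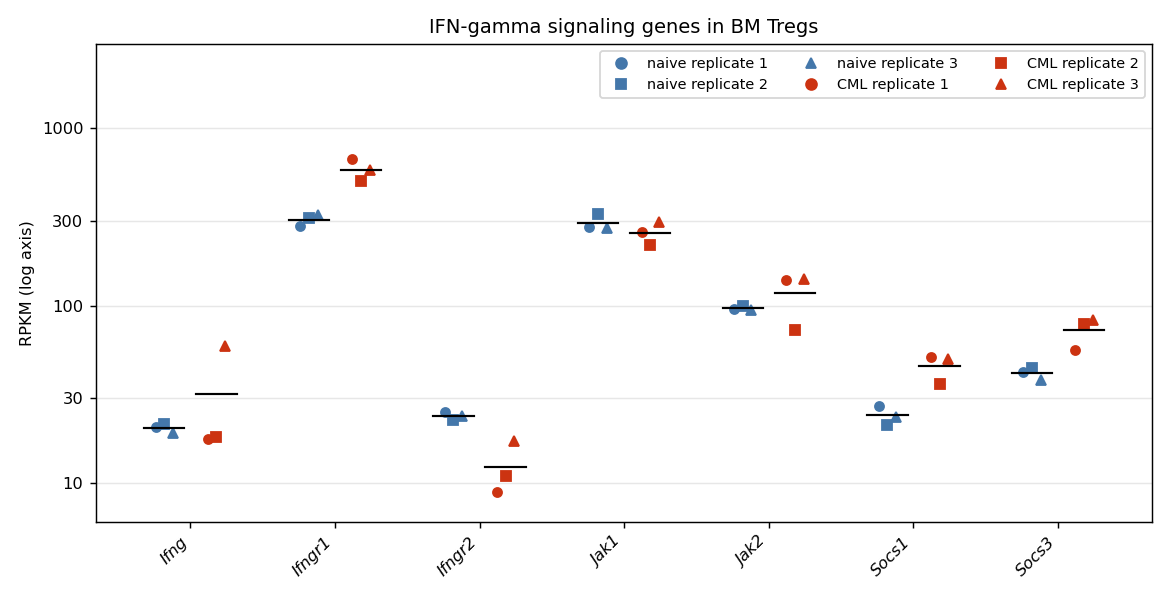
RPKM values (log axis) of 7 IFN-γ signaling genes in each of the 6 libraries, with naive Tregs in blue, CML Tregs in red, a symbol for each replicate number and black lines for group means. The CML points lie above the naive points for Ifngr1, Socs1 and Socs3 and below them for Ifngr2.

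Other genes that IFN-γ induces had a median difference of 0.19 over the 25 tested, with 20 above 0 (background 35.7%) and, with limma, 0 past the adjusted p. At an unadjusted p under 0.05, 3 of them were higher (background 2.92%) and 0 lower (background 6.77%). Ly6a, which encodes the surface protein Sca-1, had 58.5, 67.0 and 78.5 RPKM in naive and 160, 134 and 157 RPKM in CML replicates 1, 2 and 3 (difference 1.14, limma adjusted p = 0.0729). Serpina3g, an inhibitor of cathepsins, had 72.8, 62.9 and 89.1 RPKM in naive and 229, 135 and 193 RPKM in CML Tregs (difference 1.28, limma adjusted p = 0.125). Dtx3l, a ubiquitin ligase, had 58.2, 57.8 and 78.2 RPKM in naive and 87.7, 90.2 and 92.7 RPKM in CML Tregs (difference 0.49, limma adjusted p = 0.451). All CML values were above the naive values for 5 of the 25 genes (background 4.84%), these 3 included.

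The list of genes that type I interferons induce, to which GBPs also respond, had a median difference of 0.26. It covers the 21 tested, with 14 above 0 (background 35.7%). Among the 21 are also the receptor chains Ifnar1 and Ifnar2 (differences -0.28 and 0.07). With limma, 0 passed the adjusted p, and 3 were higher at an unadjusted p under 0.05 with a fold of at least 1.5 (background 2.61%). Isg20, an exonuclease, had 16.7, 10.8 and 14.3 RPKM in naive and 32.3, 26.4 and 39.2 RPKM in CML replicates 1, 2 and 3 (difference 1.18, limma adjusted p = 0.238). Ifit1 and Oas2, which sense viral RNA, had differences of 0.94 and 1.32 (limma adjusted p = 0.391 and 0.47), with Oas2 at no more than 14.9 RPKM. The list of other IRF genes also holds genes of IRF2-binding proteins, which are not IRFs. Its 11 genes had a median difference of -0.16, compared with -0.18 over all genes tested. Of the 11, 1 was lower at an unadjusted p under 0.05 with a fold of at least 1.5 (background 5.94%). This was Irf2bp2, a corepressor that binds IRF2, with mean levels of 80.4 RPKM in CML and 126 RPKM in naive Tregs (difference -0.65, limma adjusted p = 0.282). With limma, no gene from Irf2 to Irf9 was under an unadjusted p of 0.05. Irf2bp1 had a difference of -0.61 (limma adjusted p = 0.59).

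The autophagy conjugation genes, whose products place IRGs and GBPs on vacuoles, had a median difference of -0.31 over 10 genes. Over all genes tested the median was -0.18. Of the 10 genes, 3 were above 0 (background 35.7%). With limma, 0 passed an unadjusted p of 0.05, and Gabarapl2, Atg12 and Atg7 had the smallest (differences -0.73, -1.74 and 0.51, limma adjusted p = 0.583, 0.614 and 0.624). Atg12 was at 0 in CML replicate 2. The 6 inflammasome genes tested had a median difference of -0.05, and 0 passed an unadjusted p of 0.05. Pycard, Aim2 and Casp4 had differences of -0.48, -0.25 and 0.31 (limma adjusted p = 0.594, 0.691 and 0.694).

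Over the 6 libraries, the genes outside the lists whose log2(RPKM + 1) followed the mean of the standardized member values most closely were Sdcbp2, Clip2, Ifih1, Phgdh and Nuf2 (Pearson r of 0.996, 0.995, 0.989, 0.983 and 0.97), out of 9910 genes searched with a mean of at least 5 RPKM. Ifih1 is a sensor of viral RNA that is itself induced by interferon, and Nuf2 belongs to the kinetochore. Ifih1 had 13.1, 12.6 and 17.98 RPKM in naive and 23.9, 16.8 and 25.4 RPKM in CML replicates 1, 2 and 3. These r values describe 6 libraries that also share differences in depth and group. Among the members, the 45 pairwise r values had a median of 0.559 and ran from -0.375 (Gbp3 with Irgm1) to 0.969.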

How the data were processed

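Libraries of total RNA from sorted BM Tregs were made with the SMART-Seq v4 kit. SeqMan NGen was used by the authors for assembly and ArrayStar for expression, and 1 normalized value was deposited per feature and library. The deposited values are not named in the sources and were read as RPKM from their scale. They follow build GRCm38 (mm10) per the labels, and the annotation is not given in the sources used here. A value of 0.001 stood for no reads and was set to 0. As RPKM values are not counts, log2(RPKM + 1) was fitted with limma 3.58.1 in R 4.3.3 (trended prior variance) on all genes that averaged 1 RPKM or more, with Benjamini-Hochberg adjustment. A call was an adjusted p under 0.05 and a fold of at least 1.5. Single genes were also tested by exact permutation. Library depth was estimated from the step that 1 read adds, and the number of mice limits the precision. On simulated data with 200 genes changed by 2 on the log2 scale among 13923, the fit recovered 58.5% of them with 9 false calls. The changed genes were drawn only from those at higher levels. The largest difference of a member was 0.71, so this share does not apply to differences of that size.

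All 10 members were named. So were all measured genes of the other GBP and IRG list, Ifng, Ifngr1, Ifngr2, Jak1, Jak2 and Socs1, the 3 genes with the lowest unadjusted p of every other list (none had an adjusted p under 0.05), and the 5 genes most like the members by Pearson r. Some genes under this rule are not reported here. The members and lists were chosen with earlier results of these data known. Alternatives were 2 other pseudocounts, 2 other filters, 3 other scalings, no variance trend, array weights, a replicate block and leaving out each library.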

Additional observations from a re-analysis of the deposited data

How the results depend on the processing

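No member passed an adjusted p of 0.05 in any of the 16 alternatives (lowest adjusted p 0.172, for Iigp1), and the sign of a member's difference turned only on leaving out a library. Leave-one-out differences ran from -0.015 to 0.93 for Gbp3, -0.16 to 0.39 for Gbp9, -0.12 to 0.20 for Irgm1 and, upstream, -0.18 to 0.66 for Ifng. The number of members for which all CML values were above the naive values ran from 3 to 6. It was 3 as deposited (background 4.84%) and 6 without CML replicate 2, where the background was also higher (13.9%). The median of the 10 members stayed between 0.26 and 0.50. Over all genes, 24 were past the threshold, compared with 1 without a filter, 11 without a variance trend and 45 with array weights. The number was 53 under quantile scaling, 53 when 75th percentiles were made equal and 52 with equal sums without the highest features. On leaving out a library it was 0 to 17, and it was 0 without each naive library. In those fits without a naive library, 249 to 261 genes were higher and 493 to 600 lower at an unadjusted p under 0.05 with a fold of at least 1.5. The causes were not tested. With the replicate number as a block, 1 gene was past the threshold, with fewer residual degrees of freedom. The numbers name different mice and did not pair the libraries, since deviations from the group means correlated at -0.0048, -0.0016 and -0.019. The median difference of all genes, -0.18 as deposited, was -0.12 with the same 75th percentile. It was -0.09 with the same sum without the highest features and -0.0068 after quantile normalization. CML replicate 2 is the shallowest library, with about 82 reads behind Gbp2. Without it, the standard error of Gbp2 was 0.204, compared with 0.221 with all libraries. The standard errors of Igtp (0.225 to 0.246) and Irgm1 (0.231 to 0.233) rose instead, and those of the other members fell.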

Other observations

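The genes named here were chosen after their values were seen. Cxcl9, which encodes a chemokine that IFN-γ induces strongly in myeloid cells, was listed at 0 in 5 of the 6 libraries and at 12.6 RPKM in CML replicate 3, the library with the highest Ifng (58.9 RPKM). The neutrophil marker sum was 212 RPKM in that library and 203 RPKM in CML replicate 2, where Cxcl9 was at 0. Cxcl10 had 7.79, 2.69 and 12.1 RPKM in naive and 11.5, 8.12 and 19.1 RPKM in CML replicates 1, 2 and 3, again highest in CML replicate 3. Ubd and Batf2 were listed at 0 in all 6 libraries. B2m, the light chain of MHC class I molecules, had 2433.9 ± 99.1 RPKM in naive and 2668 ± 348 RPKM in CML Tregs (SD, n = 3), with overlapping groups.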
